A study of Mus musculus with 13 samples.

Results

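Adipocyte progenitors are fibroblast-like cells of the fat stroma that carry few markers of their own. The 10 genes described here, *Pdgfra*, *Pdgfrb*, *Dpp4*, *Pi16*, *Ly6a*, *Cd34*, *Icam1*, *Clec11a*, *Fmo2* and *Wnt2*, are known markers of interstitial and committed adipocyte progenitors, and they were read by gene identifier from a table of raw counts of 34419 genes. All 10 were found and all 10 passed the filter on low counts, as did 17779 genes in total. Levels are given as CPM, which are counts scaled to a common library size with TMM factors, and log2 fold changes are 22°C minus 29°C.

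The counts came from gluteal WAT, a subcutaneous fat depot, of male C57BL/6J mice. The mice were bred in thermal chambers and kept at their temperature from birth to 13 weeks of age, 7 of them at 22°C (room temperature) and 6 at 29°C (thermoneutrality). Both groups were singly housed, with minimal bedding and no nests. Hair of the posterior body was removed after weaning in both, so housing temperature was the only labelled difference. RNA was taken from whole tissue and not from sorted progenitors, so fewer cells of a type and less RNA per cell cannot be told apart.

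Libraries held between 22356637 and 25245785 counts. Totals of 22°C replicates 1 to 5 lay below those of all other libraries, so temperatures could be compared at similar totals only with 2 mice at 22°C. Adipocyte marker genes summed to between 33819 and 54067 CPM over all 13 libraries, so the defining markers of the labelled tissue were present. The share of counts from 14 skeletal muscle genes reached 5.37% in 22°C replicate 1 and 7.73% in 22°C replicate 7 but was at most 1.42% elsewhere, and mesothelial genes stood out in 22°C replicate 4. Counting error was small for most members, whose counts per library ran from 54 to 141 for *Clec11a* and from 2130 to 17596 for *Pi16*.

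In subcutaneous fat, progenitors are thought to form a hierarchy. Interstitial progenitors, marked by DPP4, PI16 and the ligand WNT2, lie in the connective tissue around the lobules and give rise to committed preadipocytes marked by ICAM1, which sit closer to mature fat cells and to vessels. A further stromal population is marked by F3 (tissue factor), CLEC11A and FMO2, whereas PDGFRA, PDGFRB, CD34 and LY6A (Sca-1) are shared more widely. Several of the 10 genes are not particular to progenitors. *Cd34* and *Ly6a* are also used by endothelium, *Pdgfrb* by mural cells, and *Icam1* by endothelium and leukocytes.

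As reported below, *Pi16*, *Dpp4*, *Wnt2*, *Cd34* and *Ly6a* varied together from mouse to mouse. Of these genes, the sequence before the start is shown for *Cd34*, *Dpp4* and *Wnt2*. That of *Pi16* was searched for motifs but is not printed. RefSeq promoters in the GRCm38.p6 build were matched by symbol, with a filter on chromosome, which left 8 of the 10 members. *Pdgfrb* and *Ly6a* had none after these steps. The stretches before the first exon are given 5′ to 3′ on the strand of the gene, with motif matches in capitals. They lie at chr1:194938571-194938818 on the plus strand for *Cd34*, at chr2:62412232-62412481 on the minus strand for *Dpp4* and at chr6:18030586-18030695 on the minus strand for *Wnt2*.
Cd34: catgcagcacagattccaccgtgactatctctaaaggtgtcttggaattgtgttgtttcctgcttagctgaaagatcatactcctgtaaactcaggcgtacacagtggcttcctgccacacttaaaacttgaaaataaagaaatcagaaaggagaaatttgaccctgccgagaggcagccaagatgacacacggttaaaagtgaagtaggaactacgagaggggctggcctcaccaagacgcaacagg
Dpp4: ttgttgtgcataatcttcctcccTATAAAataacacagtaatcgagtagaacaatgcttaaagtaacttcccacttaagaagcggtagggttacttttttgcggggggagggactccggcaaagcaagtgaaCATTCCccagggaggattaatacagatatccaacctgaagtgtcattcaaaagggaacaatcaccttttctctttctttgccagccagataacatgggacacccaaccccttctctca
Wnt2: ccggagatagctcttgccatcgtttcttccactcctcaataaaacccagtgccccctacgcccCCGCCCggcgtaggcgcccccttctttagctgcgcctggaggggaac

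Several motifs were searched on both strands, and none of the 3 stretches shared a match with another. The TATA box (TATAAA) and the TEAD motif (CATTCC) were found in the *Dpp4* stretch, and 12.4% and 12.6% of 32851 promoter windows of 250 bases hold them. The TATAAA match lay near the 5′ end of that stretch, far from the start of the gene. The *Wnt2* stretch held a GC box (GGGCGG), read on the other strand as CCGCCC, which 32.7% of windows hold. The CCAAT box (CCAAT, 33.8% of windows), the E-box (CACGTG, 6.02%) and the AP-1 motif (TGACTCA, 4.46%) were not in any of the printed stretches, and the *Cd34* stretch held no match at all. The shares are for full windows of 250 bases, which are longer than the *Wnt2* stretch of 110 bases. In their full windows *Wnt2*, *Pi16* and *Clec11a* each held 1 CCAAT match, and that of *Wnt2* was not within its printed stretch. These are descriptions of letters in a window, and no binding was measured.

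Housing temperature was compared first. None of the 10 members passed the threshold of P-adj below 0.1 in edgeR's quasi-likelihood test, by which 1.94% of all tested genes were called (0.731% higher and 1.21% lower at 22°C). None had an unadjusted p below 0.05 either, which 18.5% of tested genes had, and DESeq2 called 0 of the 10, with 0 at an unadjusted p below 0.05, where it called 10.2% of its tested genes. The CPM of both temperatures overlapped for every member, whereas they did not overlap for 1.24% of tested genes. Fold changes were above 0 for 4 members and below 0 for 6, with a median of -0.080 beside 0.0074 over all tested genes. The 95% confidence interval held 0 for all 10 members.

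**Figure D1:**
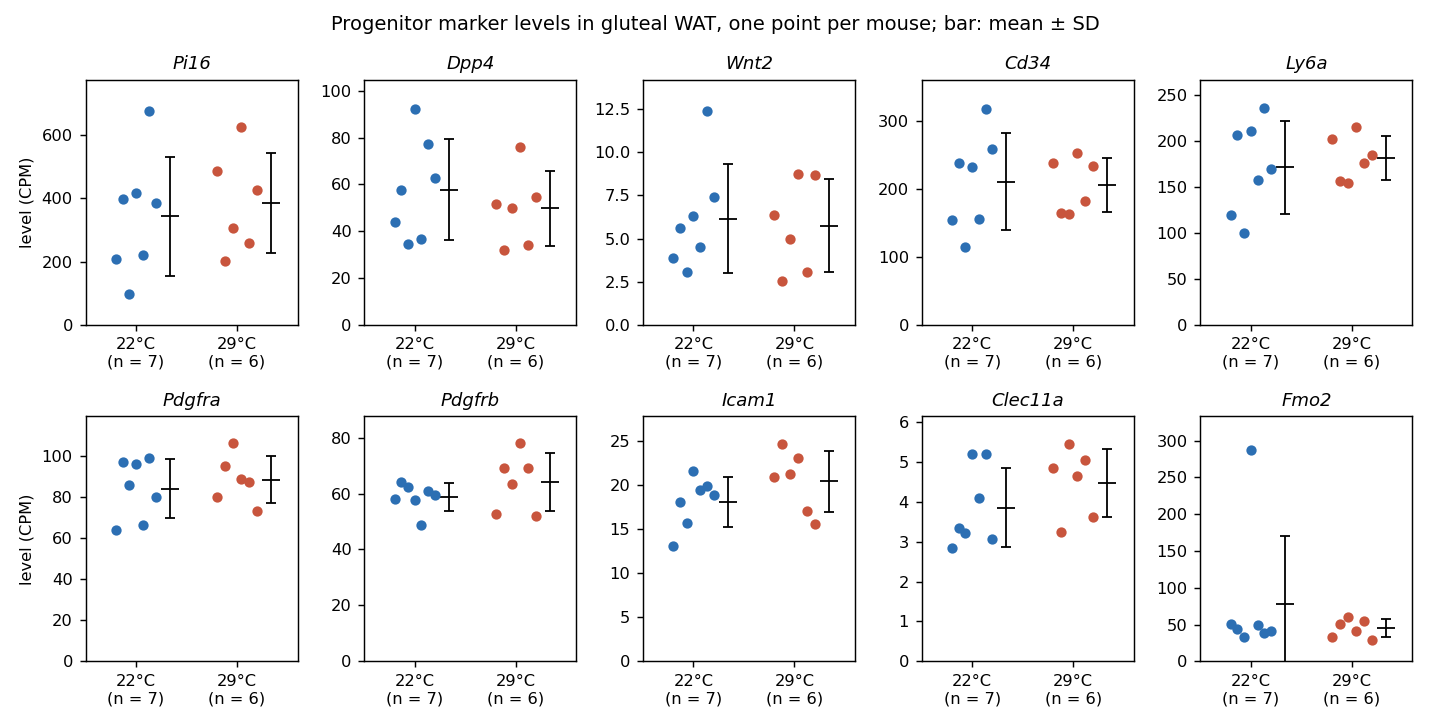
Levels of the 10 progenitor markers in CPM (y axes, each from 0) in gluteal WAT of 7 mice at 22°C (blue) and 6 mice at 29°C (red), where points are mice and black bars show mean ± SD. The temperatures overlap in every panel, *Fmo2* is at 288 CPM in 1 mouse at 22°C (its SD bar runs below the axis), and *Pi16* ranges from 96.4 to 677 CPM at 22°C.

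*Pi16* (ENSMUSG00000024011.18) encodes a secreted peptidase inhibitor-like protein of the CAP family. It ran from 96.4 through a median of 386 to 677 CPM at 22°C, and from 202 through 366 to 627 CPM at 29°C. The 7 mice at 22°C held both the lowest and the highest level, and the highest was 7.02 times the lowest. Means were 343 ± 190 CPM (SD, n = 7) and 385 ± 158 CPM (SD, n = 6), and the log2 fold change was -0.17 ± 0.38 (SE, P-adj = 0.852). The confidence interval reached from 0.504-fold to 1.58-fold, so differences between these bounds were not excluded. The smallest difference that could be detected for *Pi16* with these mice was not tested.

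*Dpp4* (ENSMUSG00000035000.9) encodes a membrane serine protease that trims peptides such as the chemokine CXCL12. Its levels at 22°C ran from 34.4 to 92.3 CPM with a median of 57.6, and those at 29°C from 32.1 to 76.2 CPM with a median of 50.7. Only 2 mice at 22°C, replicates 4 and 6, lay above all mice at 29°C. The log2 fold change was 0.22 ± 0.26 (SE, P-adj = 0.696).

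*Wnt2* (ENSMUSG00000010797.7), a secreted WNT ligand, was scarce. It ran from 3.03 through 5.61 to 12.4 CPM at 22°C and from 2.54 through 5.65 to 8.75 CPM at 29°C. A single mouse, 22°C replicate 6, exceeded every mouse at 29°C, and the medians of the temperatures were close. The log2 fold change was 0.10 ± 0.36 (SE, P-adj = 0.906).

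*Cd34* (ENSMUSG00000016494.10), a cell surface sialomucin, ran from 114 through 233 to 319 CPM at 22°C and from 163 through 208 to 253 CPM at 29°C. At 22°C, 3 mice lay below and 2 above the whole range of 29°C, and the other 2 lay within it. Means were 211 ± 71.4 CPM (SD, n = 7) and 206 ± 40.0 CPM (SD, n = 6), and the fold change on the log2 scale was 0.03 ± 0.22 (SE, P-adj = 0.956).

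*Ly6a* (ENSMUSG00000075602.11) encodes Sca-1, a lipid-anchored surface protein by which mouse stromal progenitors are sorted. It ran from 99.6 through 169 to 236 CPM at 22°C and from 155 through 181 to 215 CPM at 29°C. Again the mice at 22°C spanned the wider range. The log2 fold change was -0.09 ± 0.18 (SE, P-adj = 0.839).

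The PDGF receptors were the steadiest members. *Pdgfra* (ENSMUSG00000029231.16), the most widely used marker of the fat stroma, averaged 83.9 ± 14.5 CPM (SD, n = 7) in the cooler and 88.4 ± 11.5 CPM (SD, n = 6) in the warmer mice. The cooler mice spanned 63.9 to 98.8 CPM and the warmer ones 73.0 to 106 CPM, and the interval of the fold change, 0.794 to 1.13, was among the narrowest. *Pdgfrb* (ENSMUSG00000024620.12), a receptor shared with mural cells, had 58.7 ± 5.03 CPM (SD, n = 7) and 64.1 ± 10.3 CPM (SD, n = 6), with a fold-change interval from 0.791 to 1.06. The log2 fold changes were -0.08 ± 0.12 (SE, P-adj = 0.778) for *Pdgfra* and -0.13 ± 0.10 (SE, P-adj = 0.527) for *Pdgfrb*.

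*Icam1* (ENSMUSG00000037405.9), the adhesion molecule that marks committed preadipocytes, ran from 13.1 through 18.8 to 21.6 CPM at 22°C and from 15.6 through 21.1 to 24.7 CPM at 29°C. Of the mice at 22°C, 6 lay within the range of 29°C and 1 below it. The log2 fold change was -0.17 ± 0.13 (SE, P-adj = 0.509). *Clec11a* (ENSMUSG00000004473.11), a secreted lectin also called osteolectin, was the scarcest member, with 2.84 through a median of 3.33 to 5.19 CPM in the cooler mice and 3.24 through 4.73 to 5.45 CPM in the warmer ones. At 22°C, 3 mice lay below all mice at 29°C, and the log2 fold change was -0.21 ± 0.18 (SE, P-adj = 0.562).

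*Fmo2* (ENSMUSG00000040170.14), a flavin-containing monooxygenase, had the largest fold change of the 10, and it rested on a single mouse. Levels at 22°C ran from 32.7 through 44.2 to 288 CPM, and those at 29°C from 29.6 through 46.0 to 60.2 CPM. The highest value came from 22°C replicate 4, and no other mouse at 22°C was above 50.3 CPM. The log2 fold change was 0.79 ± 0.50 (SE, P-adj = 0.422) with all mice and -0.07 ± 0.17 (SE, P-adj = 0.868) without that mouse. In the same library 6 mesothelial genes (*Msln*, *Upk3b*, *Lrrn4*, *Krt19*, *Wt1* and *Gpm6a*) summed to 345 CPM, beside 5.44 to 14.8 CPM in the other mice at 22°C and 5.19 to 8.97 CPM at 29°C. Of these genes, *Wt1* was at 0 in 9 of 13 libraries, and *Msln* and *Upk3b* in 2 each. Deviations of *Fmo2* and of the mesothelial sum from their group means had a Pearson r of 0.894 over 13 mice (permutation p = 0.0796, adjusted p = 0.705 over 20 relations) and a Spearman rho of 0.489 (permutation p = 0.103), and r fell to 0.334 without the 2 mice farthest from the median. The relation thus rested on those mice, it was -0.326 in the 8 libraries with higher totals, and the part of mesothelium in the level of *Fmo2* was not tested.

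**Figure D2:**
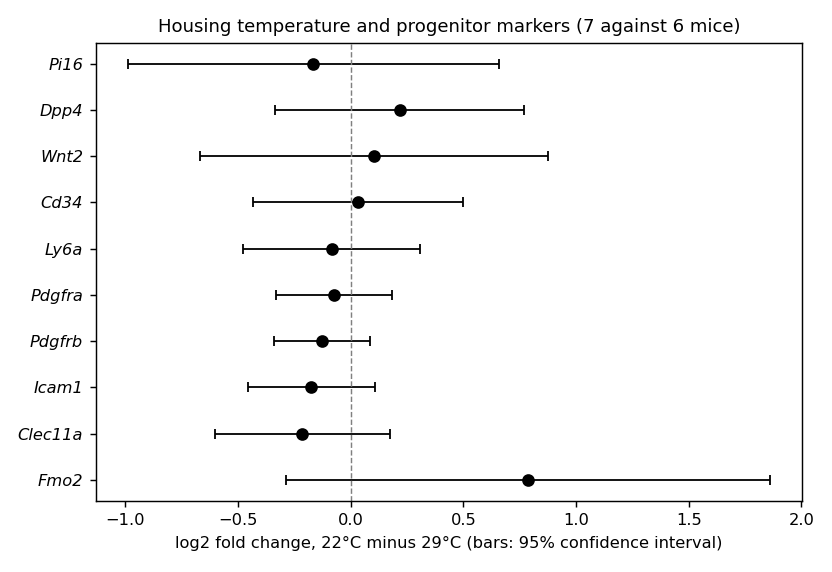
Log2 fold changes (x axis, 22°C minus 29°C, 7 against 6 mice) of the 10 markers with 95% confidence intervals from the edgeR fit across 17779 genes. Every interval crosses 0, the narrowest belong to *Pdgfra* and *Pdgfrb*, and the widest belongs to *Fmo2*.

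Comparing libraries of similar totals left the members uncalled as well, but it moved several of them. The mice at 22°C with higher totals were replicates 7 and 6. Replicate 6 had the highest level of all 13 libraries for *Pi16*, *Wnt2*, *Cd34* and *Ly6a*. Replicate 7 had the largest share of counts from skeletal muscle genes (7.73%). The part of single mice in the values below was not tested. Between 2 mice at 22°C and 6 mice at 29°C with higher totals, the log2 fold change was 0.48 ± 0.20 (SE, P-adj = 0.364) for *Cd34*, 0.78 ± 0.47 (SE, P-adj = 0.539) for *Wnt2*, 0.48 ± 0.30 (SE, P-adj = 0.541) for *Dpp4*, 0.45 ± 0.41 (SE, P-adj = 0.692) for *Pi16* and 0.15 ± 0.16 (SE, P-adj = 0.758) for *Ly6a*. *Cd34* stood at 259 and 319 CPM in those 2 mice, above the 253 CPM that was the highest at 29°C, and at no more than 239 CPM in the 5 mice with lower totals. The signs of *Pi16* and *Ly6a* were opposite to those with all mice. Since libraries of lower totals were all from 22°C, library total and temperature cannot be told apart for them.

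The 10 genes differed in how much they varied among mice of the same temperature. The SD of log2 CPM within groups was above the median of all tested genes, 0.241, for 8 of the 10 members. It was 0.832 for *Fmo2*, 0.792 for *Pi16* and 0.697 for *Wnt2*, higher than in 94.2%, 93.7% and 92.0% of tested genes. For *Fmo2* 22°C replicate 4 deviated from its group mean by 2.36 in log2 CPM. The next largest deviation in size was -0.773, in 22°C replicate 3. *Dpp4* followed with 0.506, which exceeded 83.8% of tested genes. At the other end were *Pdgfrb* with 0.186 and *Pdgfra* with 0.230, higher than in 35.3% and 47.4% of tested genes.

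For 5 of the members much of this variation was shared. *Pi16*, *Dpp4*, *Wnt2*, *Cd34* and *Ly6a*, which were put together after their values were seen, varied together from mouse to mouse within each temperature. In 22°C replicate 6, *Pi16*, *Wnt2*, *Cd34* and *Ly6a* had their highest level of all 13 libraries and *Dpp4* its second highest, and in 29°C replicate 4 each of the 5 ranked 2 or 3. In 22°C replicate 3, *Pi16*, *Cd34* and *Ly6a* had their lowest level, *Wnt2* ranked 12 and *Dpp4* 11. The mice that stood high or low for these 5 genes therefore came from both temperatures. *Pdgfra* ranked 8 and *Pdgfrb* 6 in that last library, in the middle of their own ranges.

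**Figure D3:**
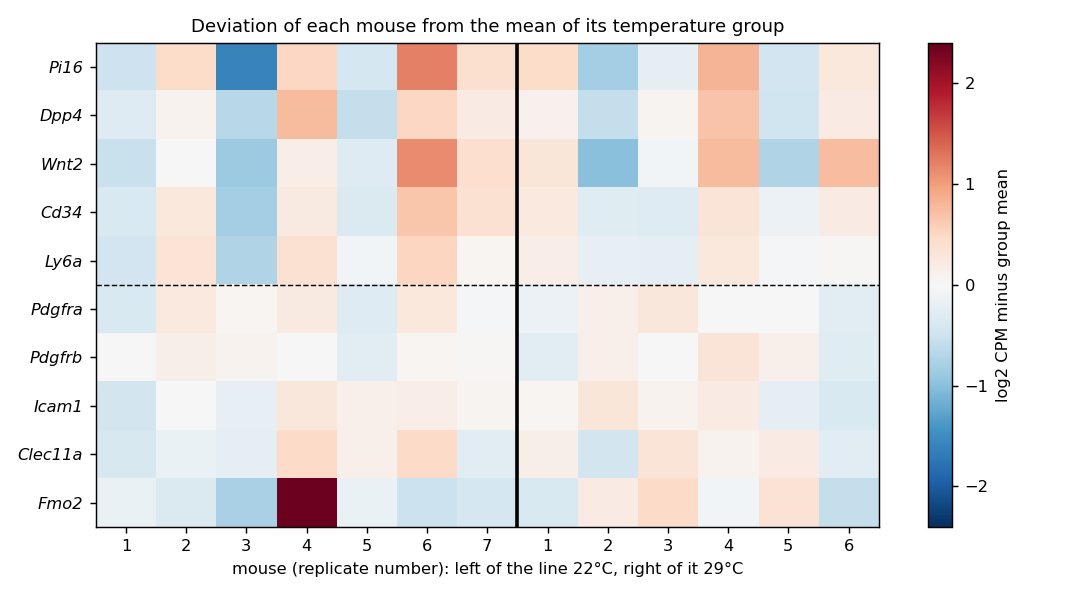
Deviation of log2 CPM from the mean of the temperature group (colour, red above and blue below) for 10 markers (rows) in 13 mice (columns, 22°C left of the solid line and 29°C right of it). The 5 genes above the dashed line are high together in 22°C replicate 6 and 29°C replicate 4 and low together in 22°C replicate 3, and the darkest cell is *Fmo2* in 22°C replicate 4.

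Pairs of members were compared by the correlation of these deviations over 13 mice, with permutation within groups and adjustment over all 45 pairs. All 10 pairs among the 5 genes passed an adjusted p of 0.05, with Pearson r from 0.746 (*Ly6a* and *Wnt2*, permutation p = 0.00185) to 0.964 (*Pi16* and *Cd34*, permutation p = 7e-05) and Spearman rho from 0.758 to 0.923. Adjusted permutation p-values were at most 0.0166 for r and 0.0233 for rho. Other genes followed these members as closely, since between 1.65% (*Dpp4*) and 2.11% (*Ly6a*) of all other tested genes had an r of at least 0.746 with a given one of the 5, or 293 to 375 genes. Without the 2 mice farthest from the median r lay between 0.672 and 0.952, and in the 8 libraries with higher totals between 0.668 and 0.936. The 5 libraries with lower totals were too few for a value of their own. Within 22°C r ran from 0.793 to 0.982, and within 29°C from 0.706 to 0.954.

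None of the other 35 pairs passed. The 25 pairs of one of these genes with another member had a median r of 0.254, from -0.146 to 0.553, and the 10 pairs among *Pdgfra*, *Pdgfrb*, *Icam1*, *Clec11a* and *Fmo2* had a median of 0.414, from -0.0348 to 0.580. *Pdgfra* and *Pdgfrb* had an r of 0.563 (permutation p = 0.0328, adjusted p = 0.134) and a rho of 0.478 (permutation p = 0.107). *Pi16* and *Icam1*, which mark interstitial and committed cells, had an r of 0.358 (permutation p = 0.244, adjusted p = 0.478) and a rho of 0.385 (permutation p = 0.210). With 13 mice, an r of this size could not be told from 0.

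**Figure D4:**
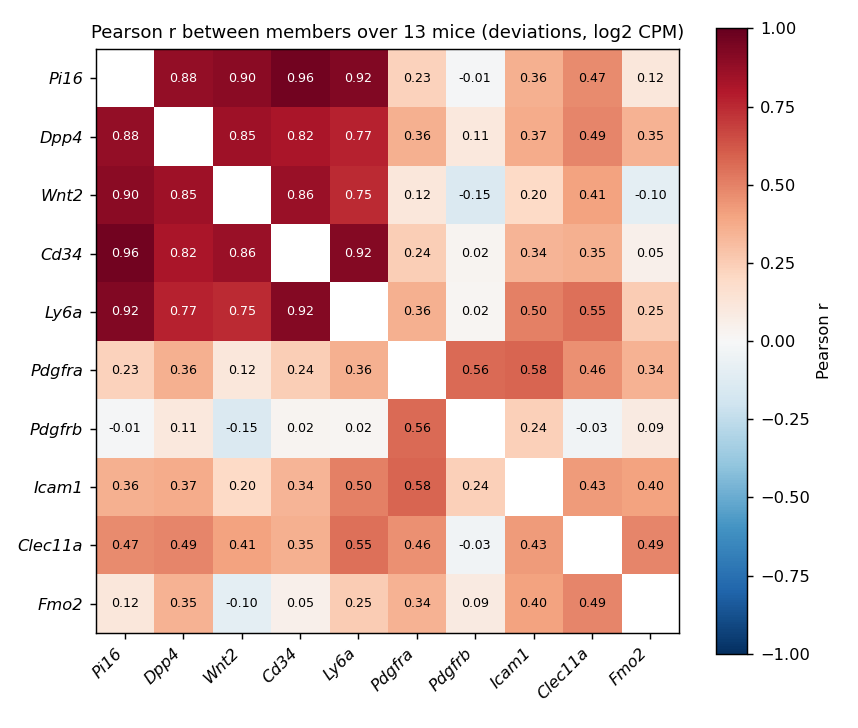
Pearson r (colour and number in each cell) between pairs of the 10 markers over 13 mice, computed on log2 CPM centred on the temperature group. The 5 genes at the upper left form a block with r from 0.746 to 0.964, and no cell outside it is above 0.580.

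*Pi16* was then compared with other stromal genes, 41 in all and none of them a member. Of 12 other interstitial progenitor markers, 10 passed an adjusted p of 0.05 for r, all with r above 0, and 9 passed for rho. The median r over the list was 0.855 and the lowest r that passed was 0.687, values that 0.484% and 3.43% of all 17778 other tested genes reached with *Pi16*, where the median over all of them was 0.0040. *Anxa3* had an r of 0.914 (permutation p = 7e-05, rho = 0.901), *Ackr3*, a decoy receptor for CXCL12, 0.904 (permutation p = 5e-05, rho = 0.824) and *Sema3c*, a secreted semaphorin, 0.825 (permutation p = 0.00099, rho = 0.687). Those that did not pass were *Smpd3* with 0.502 and *Limch1* with 0.0536, named here after their values were seen. In the libraries with higher totals, r of the 10 lay between 0.762 and 0.925.

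Of 9 committed preadipocyte markers, 2 passed and both had r below 0, the median over the list was -0.297, and the difference between the lists was not tested. They were *Mme*, a membrane endopeptidase, with r of -0.783 (permutation p = 0.00444, adjusted p = 0.0165, rho = -0.758), and *Zfp423*, a transcription factor of preadipocytes, with -0.688 (permutation p = 0.0064, adjusted p = 0.0219, rho = -0.698), both named after their values were seen. For *Mme* r was -0.184 in the libraries with higher totals and -0.240 within 29°C, so its relation was weak among those libraries, whereas for *Zfp423* they were -0.639 and -0.797. Of 8 markers of F3+ stromal cells none passed for r and 1 for rho, with a median r of 0.0921. Of 12 general stromal genes 9 passed for rho, as many as of the interstitial markers, and the median r was 0.641. For r 5 passed, namely *Mfap5* (r = 0.918), *Cd248* (0.821), *Lum* (0.733), *Thy1* (0.719) and *Fbn1* (0.668), again named after their values were seen, whereas *Gsn*, the most abundant of that list, had -0.320.

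**Figure D5:**
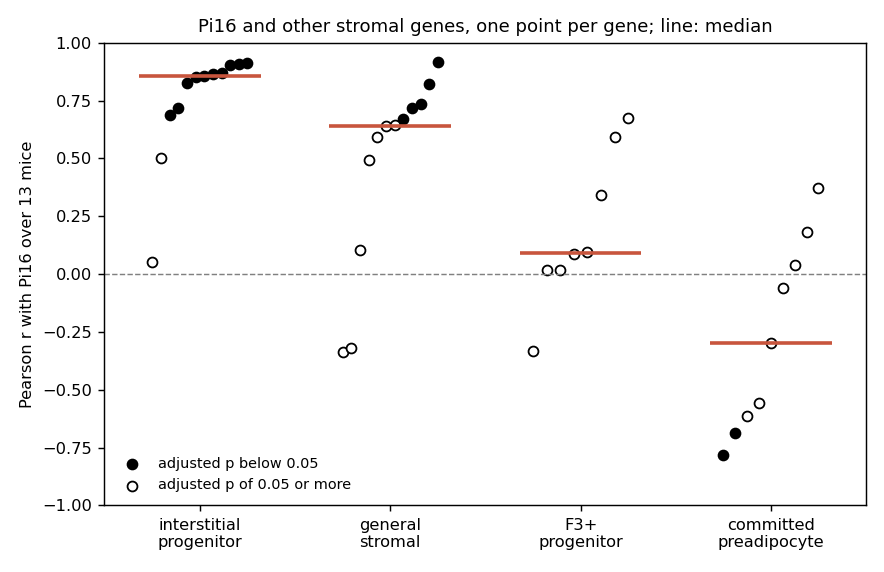
Pearson r of *Pi16* (y axis) with each gene of 4 stromal lists over 13 mice, where filled points have an adjusted p below 0.05 and red lines are medians. The median falls from 0.855 for interstitial markers to -0.297 for committed preadipocyte markers, where both filled points lie below -0.6.

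Markers of other cell types were set beside these genes. Of 10 summed marker lists, the macrophage list moved most with *Pi16*, with an r of 0.741 (permutation p = 0.0064, adjusted p = 0.128 over 20 relations) and a rho of 0.885 (permutation p = 0.00039, adjusted p = 0.0078). It was 0.786 in the libraries with higher totals. The sum of 10 macrophage genes spanned 684.5 to 1426 CPM in the cooler mice and 738 to 1470 CPM in the warmer ones, the highest at 22°C in replicate 6, where *Pi16* was highest too. For endothelium r with *Pi16* was -0.212 (permutation p = 0.496), and for adipocytes it was -0.418 (permutation p = 0.194), with rho of -0.484 and -0.396. Endothelium also uses *Cd34* and *Ly6a*, but the relation of these 2 genes to the endothelial list was not tested. The part of other cells in the shared variation was not tested.

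For each member the 3 genes that followed it most closely over the 13 mice are given as a description. *Pi16* was followed by *AC162182.1* (r = 0.988), *Ang* (0.956) and *Clic1* (0.939), and *Cd34* by *Gm16897* (0.987), *1700019D03Rik* (0.959) and *Lrrc17* (0.949). In the annotation *AC162182.1* and *Gm16897* lie antisense to *Pi16* and *Cd34*, and the strand setting of the counting was not given in the sources used here, so reads of each pair cannot be told apart. Antisense genes also overlap *Pdgfra*, *Dpp4* and *Icam1*. *Dpp4* was followed by *Myof* (0.975), *Pla2g4a* (0.971) and the receptor tyrosine kinase gene *Axl* (0.963), *Wnt2* by *Tubb6* (0.968), *Csrp2* (0.955) and *Islr* (0.949), and *Ly6a* by *Ifitm3* (0.956), *S100a6* (0.951) and its family neighbour *Ly6c1* (0.946).

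*Pdgfra* was followed by *Serinc3* (0.912), *Mxra8os* (0.886) and *Layn* (0.879), *Pdgfrb* by *Gm28265* (0.872), *Polm* (0.852) and *Mir8101* (0.842), and *Icam1* by *Ncoa5* (0.925), *Atp8b2* (0.922) and *Rfx1* (0.914). *Clec11a* had *Sec61a1* (0.856), *Mpp7* (0.831) and *Aldh18a1* (0.828), of which *Mpp7* was itself lower at 22°C with 32.5 beside 51.4 CPM (log2 fold change -0.66, P-adj = 0.0262). *Fmo2* had *Spock2* (r = 0.961, rho = 0.857), *Serpinb6b* (0.941, rho = 0.802) and *Ccbe1* (0.927, rho = 0.824). None of these 3 passed the test between temperatures, although the log2 fold changes of *Serpinb6b* and *Ccbe1* were 1.69 and 1.91.

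To compare genes with each other, CPM were divided by the summed exon length in kilobases of a GRCm38 annotation, which is close to but not the build of the counts. On this scale *Ly6a* was the most abundant member, with 142 ± 41.6 CPM per kb (SD, n = 7) in the cooler mice and 151 ± 20.2 CPM per kb (SD, n = 6) in the warmer ones, above *Pi16* in 13 of 13 libraries. *Pi16* had 53.9 ± 29.8 and 60.4 ± 24.9 CPM per kb and lay above *Cd34* (28.9 ± 9.80 and 28.3 ± 5.49) in 12 of 13, although their spreads overlapped at 22°C. Behind them *Pdgfrb*, *Pdgfra*, *Dpp4* and *Fmo2* lay between 7.87 and 13.9 CPM per kb with overlapping spreads. *Pdgfrb* was nevertheless above *Pdgfra* in 13 of 13 libraries. *Fmo2* led these genes at 22°C only by its mean, since it was above *Pdgfrb* in 2 of 13 libraries. *Icam1* followed with 4.15 ± 0.656 and 4.68 ± 0.801 CPM per kb. *Wnt2* (2.73 ± 1.39 and 2.54 ± 1.19) and *Clec11a* (1.29 ± 0.335 at 22°C) were last, and *Wnt2* was above *Clec11a* in 12 of 13 libraries with overlapping spreads.

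Other genes of the same cells and pathways were read from the same fit. Over 9 lists with 82 tested genes, 1 gene passed the test between temperatures, beside the background of 1.94%. It was *Vcam1*, an adhesion molecule listed for committed preadipocytes, which was lower at 22°C with 12.2 ± 2.56 CPM (SD, n = 7) than at 29°C with 17.9 ± 2.73 CPM (SD, n = 6). The log2 fold change was -0.55 ± 0.14 (SE, P-adj = 0.0896). The call was lost in 12 of 13 fits that left out a mouse (P-adj up to 0.207, without 29°C replicate 3) and kept without 22°C replicate 6 (P-adj = 0.0349), and the log2 fold change was -0.30 (P-adj = 0.569) in libraries with higher totals. DESeq2 called 10 of these genes, where its background was 10.2%. By that tool *Cebpb*, *Klf4*, *Cd24a* and *Wnt9a* were higher at 22°C. *Pdgfc*, *Vcam1*, *Itgb1*, *Aoc3*, *Dlk1* and *Lrp5* were lower.

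Of the 9 committed preadipocyte markers 8 had a log2 fold change below 0, with a median of -0.27, beside 8612 of all 17779 tested genes below 0. *Aoc3*, a vascular adhesion and amine oxidase also made by mature adipocytes, had 1555 ± 273 and 1959 ± 182 CPM (P-adj = 0.183), *Col15a1*, a basement membrane collagen, 455 ± 120 and 676 ± 249 CPM (P-adj = 0.233), and *Sparcl1* 217 ± 31.9 and 234 ± 34.6 CPM (P-adj = 0.666). Among 12 interstitial markers, 4 were above and 8 below 0 with a median of -0.05 and none passed. The most abundant were *Sema3c* with 87.0 ± 24.4 and 82.3 ± 24.1 CPM, *Ackr3* with 72.2 ± 23.5 and 72.0 ± 21.6 CPM, and *Anxa3* with 68.6 ± 22.8 and 70.5 ± 15.7 CPM. The 8 genes of F3+ stroma had a median of 0.15 and the 12 general stromal genes a median of -0.18, and none of either passed. *Bgn* (biglycan) had 344 ± 71.9 and 298 ± 74.1 CPM, and *Col3a1*, a fibrillar collagen of the stroma, 2462 ± 566 and 3155 ± 445 CPM (P-adj = 0.259).

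None of 14 ligands, receptors and substrates that act with the members passed. Among them *Ctnnb1* (beta-catenin, which relays WNT signals) had 285 ± 20.9 CPM at 22°C and 314 ± 15.3 CPM at 29°C (P-adj = 0.273), *Cxcl12*, a substrate of DPP4, 158 ± 25.1 and 180 ± 21.6 CPM (P-adj = 0.394), and the WNT co-receptor gene *Lrp6* 145 ± 19.4 and 150 ± 12.7 CPM (P-adj = 0.810). Of 8 other WNT ligand genes none passed, and *Wnt5a*, the most abundant, had 27.3 ± 4.59 and 27.8 ± 5.61 CPM. The Ly6 family had 5 tested genes and no call, with *Ly6e* at 521 ± 111 and 645 ± 29.6 CPM (P-adj = 0.241) and *Ly6c1* at 172 ± 40.7 and 170 ± 18.8 CPM. Of 3 tested relatives of *Fmo2* none passed, and *Fmo1* had 252 ± 41.4 and 323 ± 62.7 CPM (log2 fold change -0.36).

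Genes of entry into adipogenesis and of proliferation were also read. Of 11 adipogenic regulators none passed, with *Cebpa* at 1215 ± 246 and 1154 ± 97.8 CPM, *Pparg* at 309 ± 48.3 and 356 ± 28.8 CPM (P-adj = 0.310) and *Ebf1* at 217 ± 48.4 and 233 ± 26.8 CPM. All 11 tested proliferation genes had a log2 fold change below 0, with a median of -0.31, and none passed (smallest P-adj 0.209). Of all 17779 tested genes, 8612 were below 0. The summed proliferation list was highest in replicate 4 at 29°C (95.4 CPM) and in replicate 5 at 22°C (82.0 CPM). *Pcna*, a replication clamp, had 31.9 ± 3.29 and 36.7 ± 3.50 CPM, and *Mki67* 6.06 ± 3.78 and 8.53 ± 6.39 CPM. *Ly6a* and *Icam1* are known to respond to interferon. Of 16 interferon-stimulated genes 3 were called lower at 22°C, beside 1.21% of all tested genes, *Ifit3* (19.4 and 37.1 CPM, P-adj = 0.0703), *Xaf1* (11.8 and 15.5 CPM, P-adj = 0.0972) and *Ifi44* (1.92 and 3.71 CPM, P-adj = 0.0463), whereas *Ly6a* and *Icam1* were not called. None of the 16 was called in libraries with higher totals or with the cluster of totals as a covariate, where calls over all genes fell from 345 to 8 and 4.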

How the data were processed

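The authors aligned reads of 13 gluteal WAT libraries with STAR 2.7.5a, assigned them to genes with featureCounts, and deposited raw counts. The submitters' notes name GRCm39, and the strand setting is not given in the sources used here. The deposited regularized log2 values, made by the authors with DESeq2, served in an alternative. Gene symbols were taken by identifier (34006 of 34419 genes).

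Libraries were grouped by the temperature and replicate in the labels. Counts were fitted with edgeR 4.0.16 in R 4.3.3 (TMM, filterByExpr by group, quasi-likelihood F test, no covariate, Benjamini-Hochberg over 17779 genes, called at P-adj below 0.1). The SE of a log2 fold change is its absolute value over the root of F. Log2 CPM used a prior count of 2. A count of 0 allows 3 counts, or up to 0.158 CPM, and this covers counting error only. No pair of libraries agreed within sampling noise. Correlations used 100000 permutations within groups, two-sided, and their smallest p is 1e-05. On simulated counts, edgeR called 77 of 98 genes changed by a log2 fold change of 1 and 97 of 99 changed by 2, with 15 false calls among 17540 genes. Each gene was drawn independently, so variation shared between genes was not simulated. Nor were changes below 1, where the estimates of all members lay (-0.21 to 0.79).

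Alternatives were DESeq2 1.42.0 and its size factors, other filters, robust fitting, a replicate block, muscle and library-total covariates, limma 3.58.1, a P-adj of 0.05 and leaving out mice. The members and lists were chosen with earlier results of these data known. Named genes are all members, the called and the 3 most abundant genes of each list, in part, and the 3 genes closest to each member by Pearson r. Progenitor and partner genes called by DESeq2 are named too.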

Additional observations from a re-analysis of the deposited data

Results flagged for a closer look

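Of 40 sets of values examined (each of the 10 members and each of 10 summed marker lists at each temperature), 3 held a mouse set far apart from the rest of its group, where chance gives about 1 in 20. *Pdgfrb* was at 48.6 CPM in 22°C replicate 5, below 57.8 to 64.1 CPM in the other mice at 22°C. *Fmo2* was at 288 CPM in 22°C replicate 4, above 32.7 to 50.3 CPM in the others. The summed mesothelial genes were at 345 CPM in the same library, above 5.44 to 14.8 CPM in the others, and their part in the level of *Fmo2* was not tested.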

How the results depend on the processing

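No member was called in any alternative, and the groups of all 10 still overlapped with CPM scaled by library totals or by DESeq2 size factors. The number of genes called among all tested, 345, was 1676 with DESeq2, 42 without a filter on low counts, 214 with the replicate block, 45 with the muscle score as a covariate, 4 with the totals cluster as a covariate, 8 in libraries with higher totals, 43 without 22°C replicates 1, 4 and 7 (chosen after seeing the data), 40 at P-adj below 0.05, and between 32 (without 29°C replicate 3) and 652 (without 22°C replicate 6) when a mouse was left out; the causes were not tested. The single call among other progenitor and partner genes became 10 with DESeq2, 0 with either covariate, 1 with the replicate block (*Cebpb*, P-adj = 0.0966, in place of *Vcam1*), 0 without 22°C replicates 1, 4 and 7, and 0 to 4 when a mouse was left out.

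Signs turned as follows, all without a call. With the cluster of totals as a covariate and in libraries with higher totals, the log2 fold change was 0.014 and 0.0039 for *Pdgfra*, 0.46 and 0.45 for *Pi16*, 0.16 and 0.15 for *Ly6a*, and -0.16 and -0.17 for *Fmo2*. *Fmo2* was -0.062 with DESeq2 and -0.13 without 22°C replicates 1, 4 and 7. *Cd34* was -0.084 with the replicate block, -0.0032 with the muscle score, -0.017 with limma on the authors' log2 values and -0.0037 without those 3 mice. When a mouse was left out, the log2 fold change ran from -0.42 to 0.030 for *Pi16*, -0.18 to 0.012 for *Ly6a*, -0.10 to 0.14 for *Cd34*, -0.073 to 0.92 for *Fmo2* and -0.16 to 0.27 for *Wnt2*.

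Mice with the same replicate number deviated together with r of 0.513, 0.409, 0.348, 0.487, 0.051 and 0.387. Between different numbers r ran from -0.617 to 0.456. At 22°C, replicates 1, 2, 4 and 6 correlated best with their own number, whereas replicates 3 and 5 did not. The labels name no pairs, and the main fit and the permutations did not take the numbers as pairs. A structure shared by number is therefore not accounted for there. With the replicate block, 0 members were called and *Vcam1* had P-adj = 0.138. Library totals and 22°C were confounded, and a comparison at similar totals had 2 mice at 22°C.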
